A study of Homo sapiens with 5 samples.

Results

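The genes described here encode the proteins of the cytosolic ribosome. They were taken from the GENCODE release 44 annotation as the protein-coding genes whose symbol is RPL or RPS followed by digits and, in some, by A, X, L or L1, with RPLP0, RPLP1, RPLP2 and RPSA. The rule gave 84 genes of 20004 protein-coding genes, of which 52 belong to the large (60S) subunit and 32 to the small (40S) subunit. They lay on 21 chromosomes. Each was placed against the summits of TEAD4 binding in LX-2 cells, an immortalised line of human hepatic stellate cells used to model liver myofibroblasts. LX-2 is 1 established line. Its cells carried no labelled genetic change and received the solvent DMSO, so the samples hold no second condition. TEAD4 chromatin immunoprecipitation followed by sequencing (ChIP-seq) was carried out in 3 replicates beside 2 input samples, and the list used here, 21113 peaks in hg38 coordinates, was made by the authors from replicates 1 and 3 together. They left out replicate 2, whose concordance with the others was too low by the IDR. No value per replicate was analysed here, so the spread between replicates and the depth per sample are unknown, and no test was run. Shares are given with Wilson 95% intervals and medians with order-statistic 95% intervals, which cover counting error over genes or peaks only.

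Ribosomal proteins assemble with ribosomal RNA into the particle that translates every mRNA, and their genes are transcribed at a high rate in nearly all growing cells. Most of their promoters are short and CpG-rich, start transcription at a cytosine within a run of pyrimidines, and so give mRNAs with a 5′ terminal oligopyrimidine (TOP) tract, through which mTOR controls their translation. TEAD4 is a DNA-binding factor of the TEA domain family that recruits the co-activators YAP1 and TAZ, often at enhancers that also hold the AP-1 motif. The question addressed was how often TEAD4 lay at these promoters, compared with other coding genes that have a CpG-rich promoter. Most ribosomal protein promoters are taken to be active in every cell, though the set also holds paralogs with narrower use. Expression was not measured in the data used here, so neither the activity of these promoters nor the cell type could be checked against marker genes.

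The promoter sequence carried these marks. A promoter was called CpG-rich where the ratio of observed to expected CpG, taken within 500 bp of the start site (TSS) of the Ensembl canonical transcript, exceeded 0.6, and 83 of the 84 genes had one. The exception was RPL3L, a paralog of RPL3 known from striated muscle, with a ratio of 0.171. The median ratio was 0.797, close to 0.802 for the 13178 other CpG-rich coding genes. The annotated transcript began with a cytosine in 63 genes, 75% (64.8 to 83.0), against 10.1% of other CpG-rich genes. At least 4 pyrimidines in a row stood at the start of 60, 71.4% (61.0 to 80.0), against 5.99%. The median run was 7 bases in ribosomal protein genes and 0 in the others. The start sites of RPS3A, RPL37, RPS13 and RPS29, which all had a TEAD4 summit within 500 bp, are shown to make this run visible. Each line gives 20 bases before the canonical TSS and the first 10 of the transcript, on the strand of the gene, with the pyrimidines from the first transcribed base in capitals.
RPS3A, chr4:151099608-151099637 (hg38, plus strand): tcgcgcgactcccacttccgCCCTTTTggc
RPL37, chr5:40835213-40835242 (hg38, minus strand): tgatatagcggaagtgccttCTCTTCCggt
RPS13, chr11:17077658-17077687 (hg38, minus strand): ggcgtttccactctcgctctCCTTTCgttg
RPS29, chr14:49586371-49586400 (hg38, minus strand): gcgcatgcgtgggccagcttCTTCCTTTTa

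A TEAD4 summit lay within 2.5 kb of an annotated TSS in 13 of the 84 genes, 15.5% (9.27 to 24.7). The same held for 20.0% of other CpG-rich coding genes and for 16.7% of all 19920 other coding genes. The members' share was thus 4.50 percentage points below that of the other CpG-rich genes, with an interval from -10.7 to 4.74 that spans 0, so a difference was not detectable with 84 genes. Counted from the canonical TSS alone the order turned, with 14.3% of members against 13.7% of other CpG-rich genes, a difference of 0.611 points. The remaining 71 members, 40 of which had a summit between 2.5 and 50 kb, had no listed summit at the promoter. Within 50 kb a summit was found for 53 members, 63.1% (52.4 to 72.6), against 59.4% of other CpG-rich genes and 55.2% of all other coding genes. That difference was 3.66 points, with an interval from -7.06 to 13.2. From the canonical TSS alone it was 9.76 points (-0.966 to 19.4), with 61.9% of members against 52.1%. Each of these intervals spanned 0. With a summit counted only where no other coding gene was nearer, the 50 kb difference was -15.3 points (-22.8 to -5.35). That interval lay below 0.

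**Figure D1:**
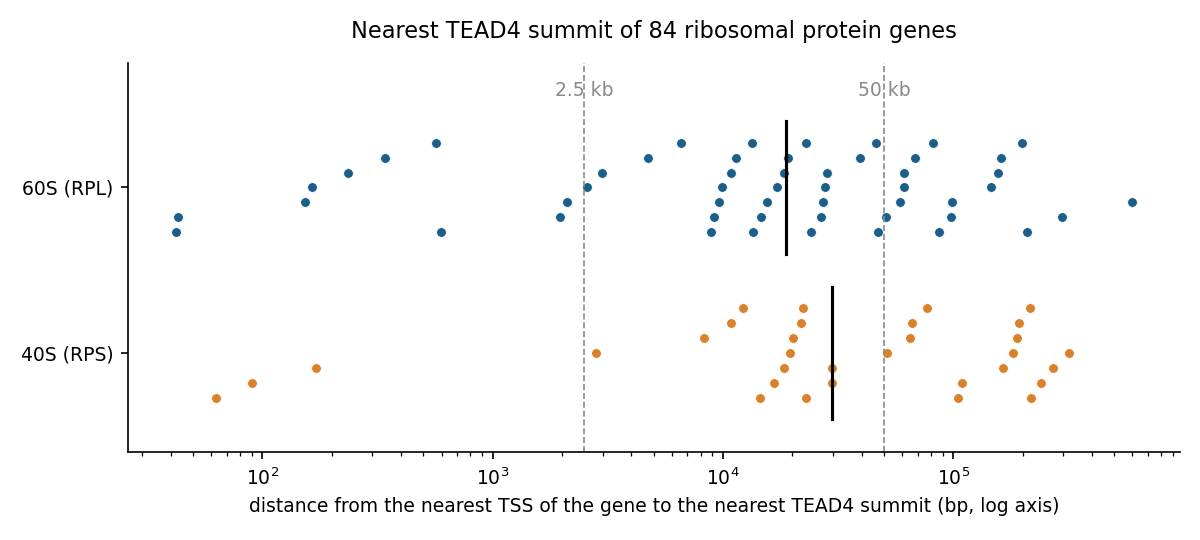
Distance in bp (log axis) from the nearest annotated TSS to the nearest TEAD4 summit, with 1 point for each of the 52 large subunit and 32 small subunit genes, spread vertically for legibility; the black bars are the medians and the dashed lines mark 2.5 and 50 kb. The 13 genes left of 2.5 kb run from 42 to 2110 bp, and the members' farthest summit is 597052 bp away.

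The order of the shares changed with distance. Within 500 bp the members' share was 10.7% against 12.2% of the other CpG-rich genes, and within 10 kb it was 27.4% against 31.4%. Within 100 kb it was 78.6% against 75.9%. The peak interval itself covered a TSS in 7 members, 8.33% (4.10 to 16.2), and in 8.45% of other CpG-rich genes. The members' median distance from the canonical TSS to the nearest summit was 26742 bp (19483 to 47381), compared with 46136 bp (44568 to 47526) for other CpG-rich genes. The intervals of these medians overlapped.

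**Figure D2:**
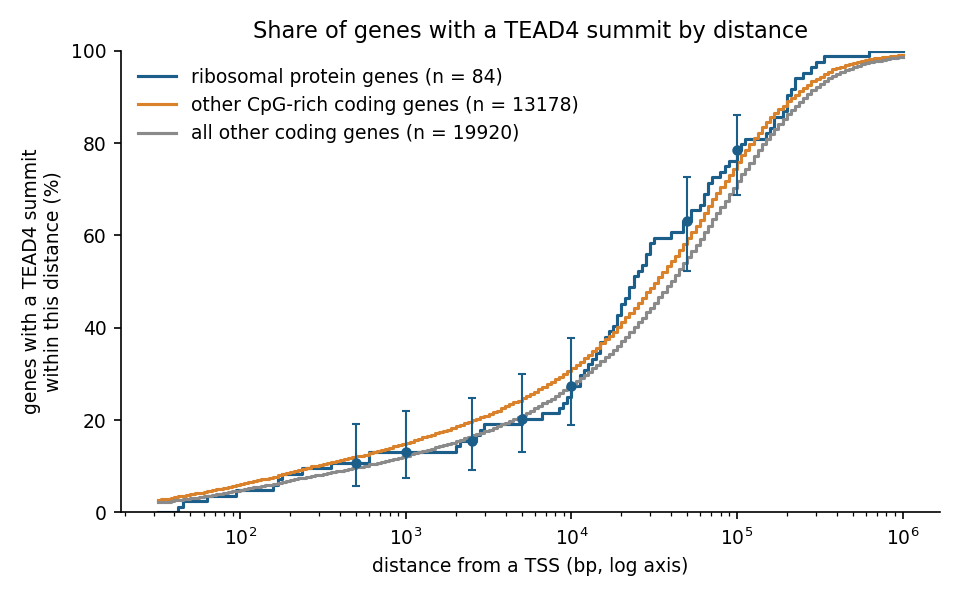
Share of genes (%) with a TEAD4 summit within a given distance (bp, log axis) of any annotated TSS, for ribosomal protein genes, other CpG-rich coding genes and all other coding genes; points with bars are the members' shares with Wilson 95% intervals. At the marked distances the members' share is below that of other CpG-rich genes up to 10 kb and above it at 50 and 100 kb, and the intervals hold the comparison curve at each marked distance.

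The 13 genes were RPL6, RPS3A, RPL23A, RPL26, RPL37, RPS13, RPS29, RPL32, RPL35A, RPL34, RPL27, RPL7 and RPL38, each with 1 peak. The sequences at 4 of the summits are shown. RPL38 had a TEAD motif, and RPL6, RPS3A and RPL26 were among the strongest peaks without one. RPL23A, also among these, is not shown. Each sequence is 61 bases on the strand of the gene with the summit at base 31. Capitals mark the TEAD motif in RPL38 (GGAATGT is the complement of ACATTCC), the ETS motif in RPS3A and the NF-Y motif in RPL26, while RPL6 held none of the motifs searched and has its summit base in capitals.
RPL38, chr17:74204241-74204301 (hg38, plus strand): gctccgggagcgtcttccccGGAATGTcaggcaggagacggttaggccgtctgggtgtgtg
RPS3A, chr4:151099504-151099564 (hg38, plus strand): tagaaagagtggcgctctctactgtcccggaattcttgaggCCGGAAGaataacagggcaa
RPL26, chr17:8385134-8385194 (hg38, minus strand): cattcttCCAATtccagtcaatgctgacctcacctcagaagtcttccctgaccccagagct
RPL6, chr12:112419403-112419463 (hg38, minus strand): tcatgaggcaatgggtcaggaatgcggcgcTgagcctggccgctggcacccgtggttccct

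Of the 13 peaks, 11 were nearest to a TSS of the ribosomal protein gene and 2 were nearer to that of another gene. The strongest, chr12:112419332-112419561, had a signal value of 161.4, the peak caller's measure of enrichment per peak, which exceeded that of 86.2% of the list. It was counted for RPL6, a large subunit protein, through an alternative TSS 595 bp away. Its summit lay 9828 bp upstream of the canonical RPL6 TSS, in intron 1 of PTPN11, the gene of the phosphatase SHP2, whose TSS was 321 bp away. The peak at RPL23A, whose protein sits beside the exit of the nascent chain, was chr17:28717774-28717992 with a signal value of 131.0. Its summit was 2110 bp upstream of RPL23A and 7 bp from a TSS of RAB34, a small GTPase gene.

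Of the 11 peaks within 2.5 kb that were nearest to a ribosomal protein TSS, the strongest was that of RPS3A, a small subunit protein near the mRNA exit channel. It lay at chr4:151099410-151099660, covered the TSS, had a signal value of 148.0 and placed its summit 94 bp upstream of the canonical TSS. The RPL26 peak, chr17:8385047-8385290, had a signal value of 119.8 with its summit 1971 bp upstream. RPL26 is a protein of the large subunit. All 4 of these peaks had the highest score of the list, 1000, as did 76.1% of the whole list. The score is the scaled irreproducible discovery rate (IDR) between the replicates.

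The other 9 peaks all had a width of 444 bp and a signal value at or below the list median of 68.1. Above 50 stood RPL37 with 66.6 (chr5:40835342-40835785), RPS13 with 61.6 (chr11:17077664-17078107), RPS29 with 60.8 (chr14:49586221-49586664) and RPL32 with 58.7 (chr3:12841595-12842038), all with a score of 1000. Their summits lay 342, 219, 63 and 252 bp upstream of the canonical TSS, so these were promoter peaks. RPS29 is a zinc-binding protein of the small subunit head. The RPS13 summit also lay inside the annotated body of its neighbour PIK3C2A.

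The 5 weakest peaks lay close to the TSS as well. RPL35A, mutated in some Diamond-Blackfan anaemia families, had a signal value of 46.9 and a score of 887, with the summit 180 bp into the gene. RPL34 had 41.9 and a score of 910 at 233 bp into the gene, and RPL27 had 40.7 and a score of 964 at 104 bp upstream. The summits of RPL35A and RPL34 lay in intron 1. RPL7 (chr8:73293163-73293606) had a signal value of 36.3, a score of 839 and its summit 248 bp into the gene, in intron 1. RPL38, known for its part in translating Hox mRNAs, had the lowest value, 35.1, at chr17:74204049-74204492, with a score of 843 and the summit 593 bp into the gene, in intron 3.

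**Figure D3:**
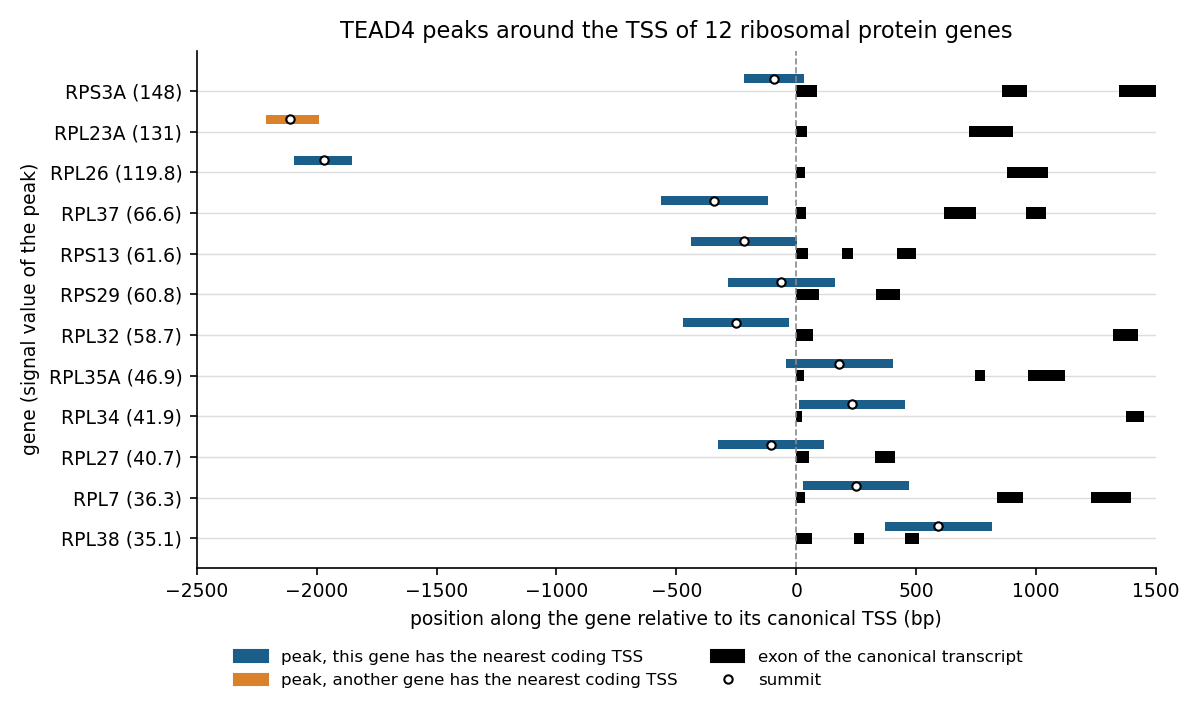
Peaks (bars), summits (open circles) and exons of the canonical transcript (black) along 12 ribosomal protein genes, in bp from the canonical TSS (dashed line), ordered by the signal value in brackets; RPL6, whose summit is 9828 bp upstream, is not drawn. Summits of 4 genes lie downstream of the TSS, between 180 and 593 bp, and those of RPL23A and RPL26 lie about 2 kb upstream.

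As a group these peaks were of ordinary strength for CpG-rich promoters. Their median signal value was 60.8 (40.7 to 131.0), against 61.6 (59.6 to 63.8) for the 3198 peaks at other CpG-rich promoters and 68.1 for the whole list. Above the list median stood 4 of 13, 30.8%, against 44.3% of peaks at other CpG-rich promoters. The highest score was reached by 8, 61.5% (35.5 to 82.3), against 71.5% of peaks at other CpG-rich promoters and 76.1% of the list. Of the 12 members with a summit within 2.5 kb of the canonical TSS, 4 had it downstream, 33.3% (13.8 to 60.9), and 35.5% of the 1802 other CpG-rich genes did. The median position was 99.0 bp upstream in the former and 90.0 bp upstream in the latter (-99.0 and -90.0 along the gene).

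**Figure D4:**
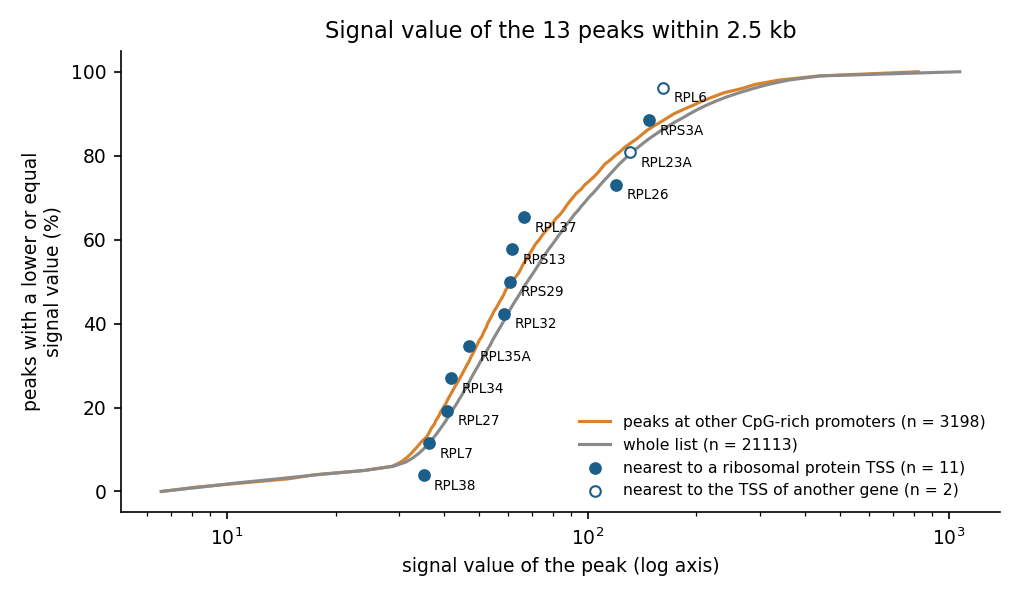
Signal value of each of the 13 peaks (log axis) against the share of peaks (%) with a lower or equal value, over the curves of the 3198 peaks at other CpG-rich promoters and of the whole list; open circles are the peaks nearest to the TSS of another gene. The points follow the curve of CpG-rich promoters, from 35.1 at RPL38 to 161.4 at RPL6.

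Each summit was searched for motifs in the 100 bp on either side, on both strands, and matches of different motifs may overlap. The TEAD motif ACATTCC was found in 2 of the 13 peaks, 15.4% (4.33 to 42.2), against 22.2% of peaks at other CpG-rich promoters and 23% of the list. These were the peaks of RPL38 and RPL7, the lowest in signal value, with the motif centred 7 and 9 bp from the summit. The AP-1 motif, TGACTCA or its complement TGAGTCA, was in 0 of 13 peaks, which allows a share of up to 23.1% (3 counts of 13, with a Wilson upper limit of 22.8%), against 15.5% at other CpG-rich promoters and 25.4% of the list. The SP/KLF motif GGGCGG, common in CpG-rich sequence, was in 5 peaks, 38.5% (17.7 to 64.5), against 28.7% and 8.56%. It was found at RPS3A, RPL23A, RPL32, RPL27 and RPL7. The ETS motif CCGGAAG was 14.0 bp from the RPS3A summit, the YY1 motif AAGATGG 97.0 bp from that of RPS29, and the NF-Y motif CCAAT 21 bp from that of RPL26 and 9 bp from that of RPL32. ETS was thus in 1 of 13 peaks, 7.69% (1.37 to 33.3), against 6.54% at other CpG-rich promoters and 2.11% of the list. YY1 was also in 1, 7.69% (1.37 to 33.3), against 3.44% and 3.15%. NF-Y was in 2, 15.4% (4.33 to 42.2), against 23.7% and 24.8%. The RUNX motif TGTGGTT was in 2 peaks, 15.4% (4.33 to 42.2), against 6.07% at other CpG-rich promoters and 9.53% of the list. It lay 35.0 bp from the RPS3A summit and 65.0 bp from that of RPL34. The RPS3A peak thus held RUNX, ETS and SP/KLF motifs and neither the TEAD nor the AP-1 motif.

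The same letters were counted from 250 bases before to 50 after the canonical TSS of every gene. ETS motifs stood in 30 member promoters, 35.7% (26.3 to 46.4), against 18.9% (18.3 to 19.6) of other CpG-rich promoters, and YY1 motifs in 15, 17.9% (11.1 to 27.4), against 7.02% (6.60 to 7.47). SP/KLF motifs were less frequent, 59.5% (48.8 to 69.4) against 79.5% (78.8 to 80.2). The TEAD motif was in 1 member promoter, that of RPL6, whose counted peak lay elsewhere, 1.19% (0.210 to 6.44), against 1.60% of other CpG-rich promoters and 2.38% of all coding promoters. The AP-1 motif was in 1, that of RPL24, against 1.90% and 3.57%. The ETS and YY1 intervals of the members lay above those of other CpG-rich promoters, and the SP/KLF interval below.

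By subunit, 10 of 52 large subunit genes had a summit within 2.5 kb, 19.2% (10.8 to 31.9), and 3 of 32 small subunit genes did, 9.38% (3.24 to 24.2), each beside the 20.0% of other CpG-rich genes. Within 50 kb the counts were 36, 69.2% (55.7 to 80.1), and 17, 53.1% (36.4 to 69.1). The intervals of the subunits overlapped at both distances. In the large subunit the nearest summit was at RPL27 (42 bp) and the farthest from RPL10L (597052 bp), a retroposed copy of RPL10 used in the testis. In the small subunit RPS29 (63 bp) and RPS15A (317555 bp) were at the ends.

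Smaller groups were described by counts alone. None of the 7 paralogs with L or L1 at the end had a summit within 2.5 kb, which allows a share of up to 42.9% (3 counts of 7, with a Wilson upper limit of 35.4%). The nearest was 2969 bp from RPL26L1, a peak of 308.5 in signal value that was nearest to RPL26L1 itself. None of the 3 genes of the P-stalk, the lateral stalk that engages the translational GTPases, had a summit within 2.5 kb either (Wilson upper limit 56.1%). All 3 had a summit within 50 kb (Wilson lower limit 43.9%), from RPLP1 at 9922 bp to RPLP0 at 27838 bp. The share within 2.5 kb was 15.5% of all members and 20.0% of other CpG-rich genes, and that within 50 kb was 63.1% and 59.4%. The nearest peaks of RPLP0 and RPLP2 had their closest coding TSS in PXN and CD151. Of the 4 X-linked genes 3 had a summit within 50 kb and none within 2.5 kb, with RPS4X at 14412 bp and RPL36A at 161471 bp. Of the pair that joins the 5S ribosomal RNA and can bind MDM2, RPL5 had a summit at 8884 bp and RPL11 none nearer than 97703 bp. RPS27A, which is made as a fusion with ubiquitin, had its nearest at 66093 bp.

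The 2.5 kb limit separated RPL26 (1951 bp) and RPL23A (2110 bp) from RPL22 (2576 bp), RPS16 (2808 bp) and RPL26L1 (2969 bp), and the 50 kb limit separated RPL14 (46089 bp) and RPL39L (47126 bp) from RPL29 (50878 bp) and RPS7 (51309 bp). The 31 genes without a summit within 50 kb included, from the nearest to the farthest, RPL29, RPS7, RPL30, RPL19, RPL12, RPS9, RPS27A, RPL21, RPS15, RPL9, RPL11, RPL31, RPS12, RPS23, RPL8, RPL7A, RPL36A, RPS19, RPS10, RPS24, RPS20, RPL17, RPL3L, RPS6, RPS2, RPSA, RPL36, RPS15A and RPL10L. Among them were RPS6, the target of the S6 kinases, and RPS19, the gene most often mutated in Diamond-Blackfan anaemia.

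Most summits within 50 kb were nearer to another gene. Of 117 such peaks, 21 were nearest to a ribosomal protein TSS, and 2 were within 50 kb of more than 1 member. Counting a summit only where no other coding TSS was nearer, 18 members had one within 50 kb, 21.4% (14.0 to 31.3), against 36.7% (35.9 to 37.6) of other CpG-rich genes, which gives the difference of -15.3 points above. Members had a median of 2.5 other coding genes with a TSS within 50 kb, and other CpG-rich genes had 1.00. Split by that number, a step added after the data were seen, the difference under this count was -12.0 points (-29.7 to 10.2) with 0 or 1 neighbours, -7.19 (-17.3 to 8.77) with 2 or 3, and -3.97 (-12.1 to 12.4) with 4 or more. The difference stayed negative in each class, and each interval spanned 0, with only 19, 35 and 30 members in the classes. The part of neighbouring genes in the pooled difference was not tested. Gene length moved with the counts as well, since members had a median length of 5548 bp and a summit inside the gene in 14.3%, against 36618 bp and 29.4%, and its part in the result was not tested.

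The number of peaks near a member was close to that of other genes. Within 50 kb members had 1.42 peaks on average and 1.00 in the median, and other CpG-rich genes 1.48 and 1.00. The maximum, 7, was at RPS14, the small subunit gene lost in the 5q deletion syndrome. The strongest peak within 50 kb had a median signal value of 97.5 (84.1 to 124.0) over the 53 members and 96.0 (93.7 to 98.5) over 7833 other CpG-rich genes.

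The strongest peak within 50 kb of each member was taken, and the 5 highest of these are given. Of them, 4 lay nearest to other genes and 1 nearest to its ribosomal protein gene. The peaks named here were chosen after their values were seen. The highest, 631.8, lay near LACTB within 50 kb of RPS27L, a paralog of RPS27. Values of 323.5 near FANCE within reach of RPL10A, 318.7 near TSPAN4 at RPLP2, 308.5 at RPL26L1 itself and 255.5 near KLHL35 at RPS3 followed. The nearest summit of RPL10A, with 148.6, had its closest coding TSS in TEAD3, a paralog of TEAD4. That of RPL10 was nearest to FLNA, the actin cross-linking filamin gene, with 222.3, and that of RPL23 was nearest to LASP1, another actin-binding protein gene, with 176.7. These are examples only. Nearest summits of similar or higher signal value lay by other genes, such as NDST1 for RPS14 (223.4) and KANK3 for RPS28 (215.5). Peaks nearest to their own ribosomal protein gene at a distance were those of RPLP1 with 120.7 and RPL5 with 84.5, among others.

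Other genes of translation, and the proteasome as a second complex that every cell needs, were counted in the same way. Of 78 mitochondrial ribosomal protein genes, 12 had a summit within 2.5 kb, 15.4% (9.03 to 25), and 48 within 50 kb, 61.5%, with MRPL36 (148.1), MRPL57 (118.0, nearer SKA3) and MRPL49 (75.6) the highest in signal value. Of 39 proteasome subunit genes 5 did, 12.8% (5.60 to 26.7), led by PSMD1 (187.9), PSMA3 (103.5) and PSMC5 (47.1). Both lists were at or below the 20.0% of other CpG-rich genes, with intervals that hold it.

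Of 28 ribosome biogenesis genes 8 had a summit within 2.5 kb, 28.6% (15.3 to 47.1), with the highest signal values at POLR1A (209.7), a subunit of RNA polymerase I, SBDS (127.8) and NHP2 (70.5). Of 15 genes with TOP mRNAs that encode no ribosomal protein, 5 did, 33.3% (15.2 to 58.3), led by HNRNPA1 (140.7, nearer CBX5), EIF3F (80.7) and NAP1L1 (78.6). These intervals hold 20.0% too. Of 4 further genes of ribosomal proteins whose symbols the rule does not take, FAU (75.6, nearer MRPL49) and RACK1 (40.1) had one.

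**Figure D5:**
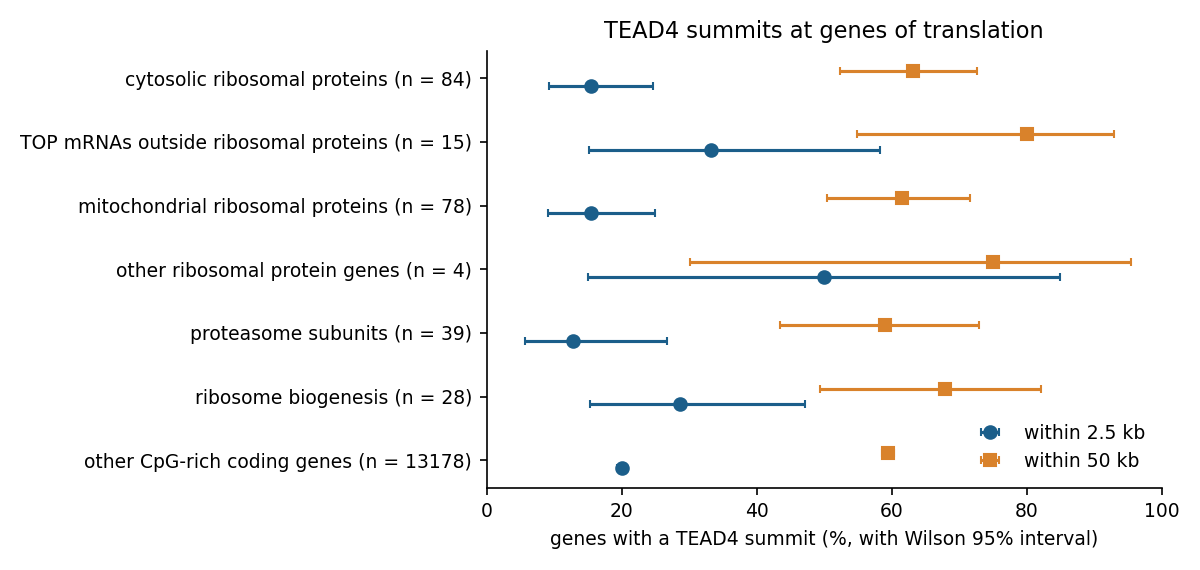
Share of genes (%) with a TEAD4 summit within 2.5 kb (circles) and 50 kb (squares) of a TSS, with Wilson 95% intervals, for ribosomal protein genes, 5 other lists and the other CpG-rich coding genes. Within 2.5 kb cytosolic (15.5%) and mitochondrial (15.4%) ribosomal protein genes lie side by side, and every interval holds the 20.0% of other CpG-rich genes.

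Part of the sequence around the TSSs of ribosomal protein genes cannot be read uniquely. These genes have many processed copies, but whether the copies account for this was not tested. Every 50-base word, the length of the reads, within 500 bp of the canonical TSS occurred once in the genome in 39 members, 46.4% (36.2 to 57.0), against 85.4% of other CpG-rich genes. Fewer than 95% of the words were unique in 11 members, 13.1% (7.47 to 21.9), against 6.94%. The loss was small in most, with a median of 99.7% unique words. The lowest value, 69.6%, was that of RPS29, with 51.8% unique words upstream of the TSS and 84.3% downstream. RPS29 had a peak over its TSS all the same. The part of mappability in the shares was not tested.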

How the data were processed

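LX-2 cells treated with DMSO gave 3 TEAD4 ChIP and 2 input samples. Reads were single-end per the labels. Per the paper's methods, the authors mapped them to hg38 with Chromap, ran the ENCODE IDR pipeline on 3 replicates, found replicates 1 and 3 concordant and ran it again on these. The deposited list holds a scaled IDR score, a signal value, a −log10 q-value and a summit offset (another unit, bp) for each peak, as the authors' pipeline gave them. The peak caller is not given in the sources used here, and the meaning of the columns was read from their layout. The depth per sample is unknown.

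The summit is the start plus the offset. Distances to the TSSs of GENCODE 44 transcripts of protein-coding genes, CpG ratios, motif matches and unique 50-base words were computed in Python 3.11.15 with numpy 2.4.6, pandas 2.3.3, pysam 0.24.0 and numba 0.67.0, and the steps were tested on simulated data. The 3 readthrough genes that match a member's symbol were left out. A difference between shares carries a Newcombe 95% interval. The members and lists were chosen with earlier results of these data known, so no p-value is given. Named were the genes with a summit within 2.5 kb or none within 50 kb, the ends of each group and the strongest peaks of each list. A few genes this rule would name are not reported here by name. Alternatives changed the TSS, the peak measure, the distance, the score, the comparison genes and the motif window.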

Additional observations from a re-analysis of the deposited data

How the results depend on the processing

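Of 73 alternative values for 8 results, 59 kept their direction and stayed within their interval. With only peaks above the median signal value, the share within 2.5 kb was 4.76%, that within 50 kb 45.2% and the median distance 64158 bp, since fewer peaks are counted. With no nearer other gene allowed, 21.4% of members had a summit within 50 kb. The limits of 10 and 100 kb gave 27.4% and 78.6%, and the TEAD motif was in 0 of the peaks with the highest score. The difference in share turned to 0.611 points within 2.5 kb of the canonical TSS, and in place of the 50 kb difference to -4.00 points at 10 kb and to -15.3 with no nearer gene. In the classes by neighbours, added after seeing the data, it was -6.25 with 0 or 1 neighbours, and with no nearer gene -12.0, -7.19 and -3.97. The cause was not tested. No paired analysis was possible because replicates 1 and 3 were merged by the authors into 1 list without a value for either, and for the same reason none was left out in turn.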

Other observations

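Of 1605 annotated pseudogenes of 78 ribosomal protein genes, 6 held a TEAD4 summit, 0.374% (0.171 to 0.813), against 28 of 8617 other processed pseudogenes, 0.325% (0.225 to 0.469). The 6 were RPL13AP7, RPL29P30, RPL32P36, RPS10P7, RPS4XP2 and RPSAP52. RPL32P36 had a peak of 90.3 in signal value, and the annotated spans of the other 5 were longer than the median of 479.0 bp. RPS10P7 and RPS4XP2 had the AP-1 motif within 100 bp of a summit, the former with a signal value of 335.8, and RPL29P30, at 343.1, had neither that motif nor the TEAD motif. The RPSAP52 peak, 126.6, was nearest to HMGA2. Inside 28 ribosomal protein genes lay 60 small nucleolar RNA genes on the same strand. Of these 28 hosts, 5 had a summit within 2.5 kb. The same held for 13 of all 84 members, 15.5%, and for 20.0% of other CpG-rich genes.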
